A study of Sus scrofa with 6 samples.

Results

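The kinesin family was followed in pig granulosa cells, the cells that line the antral follicle, nourish the oocyte and make estradiol. A gene was taken as a member if the deposited gene table named it KIF followed by a number, and KIF16B was added because its row carried only an Ensembl identifier. This gave 33 kinesin genes of 19442 genes in the table, 32 by the table's own names and 1 by identifier. In the circRNA table, 44 of 9362 circRNAs were assigned to 14 of these genes. The members were divided, by what the proteins are known to do, into 12 mitotic, 12 transport and 9 other kinesins.

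AA libraries came from granulosa cells of antral follicles at an advanced stage of atresia. These had been picked under a stereomicroscope for an opaque wall without clear vessels and for debris in the antrum. HA libraries came from healthy antral follicles, picked for a vascular surface and clear fluid. The study checked these classes by histology, by staining for cleaved caspase 3 and by hormones in the fluid, with lower AMH and estradiol in AA. Follicles of both groups came from gilts killed in the follicular phase, with no treatment and no strain given in the sources used here, and each of the 3 AA and 3 HA libraries was a pool of 10 follicles. Scraped mural cells were combined with fluid of the same follicles in both groups. Since the fluid of AA follicles contained loose apoptotic granulosa cells, an AA library was a mixture of attached and floating cells. Because pooled cells were measured, fewer cells of a type and less RNA per cell cannot be told apart.

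Kinesins are motor proteins that use ATP to move along microtubules or to change how microtubules grow. Mitotic kinesins build the spindle, move chromosomes and drive cytokinesis, and their mRNAs are made mainly in dividing cells. Transport kinesins carry vesicles, endosomes, mitochondria and ciliary cargo in cells that need not divide. Follicular atresia is the degeneration of an antral follicle, which begins with apoptosis of granulosa cells that would otherwise still proliferate. A circRNA is a closed RNA ring made when the end of a downstream exon is joined back to an upstream exon, and it is counted by the reads that cross this junction. KIF16B, a motor of early endosomes, was included because the study had singled out its circRNA on these same libraries.

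The KIF16B circRNA that the study followed, circ_KIF16B, covers chr17:28241701-28268431 of Sscrofa10.2 on the minus strand and has a predicted length of 482 nt. No sequence of the circRNA itself was used here. The divergent primers, which amplify only across the closed junction, and the convergent primers of the linear KIF16B mRNA are shown because they are what separates both RNAs of this gene at the bench. They are written 5′ to 3′.
circ_KIF16B forward: catgaccgacctctccaagt
circ_KIF16B reverse: ctgccaacatacgtctgacc
KIF16B forward: cttcaggacttgcgttgtgc
KIF16B reverse: cgagacaccatccgctcata

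The libraries differed in ways that touch these genes. Gene reads, estimated from the steps of the deposited values, ranged from 10240664 to 15462458 per library, and junction reads from 25838 to 34414. AA2, AA3 and HA1 held 1270 to 1620 circRNAs with a median of 13 or 14 reads each, whereas AA1, HA2 and HA3 held 2804 to 3465 with a median of 4 to 6. The 8 granulosa markers found of 11 listed summed to 2383 to 5770 FPKM in AA and to 4768 to 10531 FPKM in HA. These markers did not share a direction, and none was called. CYP19A1, the aromatase that makes estradiol, averaged 219.8 ± 90.0 FPKM in AA and 866.0 ± 163.7 FPKM in HA (SD, n = 3 each); FPKM are fragments scaled to transcript length and library depth. FSHR, the receptor of follicle-stimulating hormone and the marker the study used to check purity, was at 92.0, 88.3 and 90.0 FPKM in AA1 to AA3 and at 51.0, 33.3 and 28.4 FPKM in HA1 to HA3. GATA4, a transcription factor of granulosa cells, averaged 24.9 ± 9.13 FPKM in AA and 23.1 ± 4.79 FPKM in HA (SD, n = 3 each). The 12 leukocyte and macrophage markers summed to 65.4, 201.6 and 37.2 FPKM in AA1 to AA3 and to 19.5, 7.27 and 7.71 FPKM in HA1 to HA3, so that AA2 stood highest. Of these markers 2, CD163 of macrophages and MS4A1 of B cells, were listed at 0 in every library.

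Kinesin mRNAs spanned a wide range of levels. Of the 33 members, 22 reached 1 FPKM in at least 3 libraries and were tested, and these 22 did so in all 6 libraries. The other 11 were 1 mitotic, 4 transport and 6 other kinesins, with mean levels of at most 0.567 FPKM, against at least 3.98 FPKM for the members tested. KIF17, a dendritic and ciliary motor, and KIF2B, a spindle microtubule depolymerase, were listed at 0 in all 6 libraries. The neuronal motors KIF5A, KIF5C and KIF1A had mean levels of 0.534, 0.567 and 0.0897 FPKM. KIF7, a regulator of hedgehog signalling in the cilium, was also identified only by its Ensembl identifier and is given beside the members, with 9.60, 9.18 and 3.73 FPKM in AA1 to AA3 and 3.81, 4.38 and 7.69 FPKM in HA1 to HA3.

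KIF16B had the highest mean level of the family, above that of 90.1% of all genes tested. Its mRNA was at 77.2, 68.5 and 55.6 FPKM in AA1 to AA3 and at 69.2, 46.2 and 79.8 FPKM in HA1 to HA3. These values overlapped fully, and the estimated difference was 0.07 ± 0.23 on the log2(FPKM + 1) scale (SE, limma adjusted p = 0.917). KIF5B, the ubiquitous conventional kinesin heavy chain, had 40.2, 38.4 and 65.0 FPKM in AA1 to AA3 and 69.5, 60.1 and 48.3 FPKM in HA1 to HA3. AA1 and AA2 of KIF5B lay below the HA range and AA3 within it. KIF20A, which acts in cytokinesis, was the most abundant mitotic kinesin, with 31.9, 25.0 and 53.0 FPKM in AA1 to AA3 and 46.7, 38.9 and 37.3 FPKM in HA1 to HA3.

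**Figure D1:**
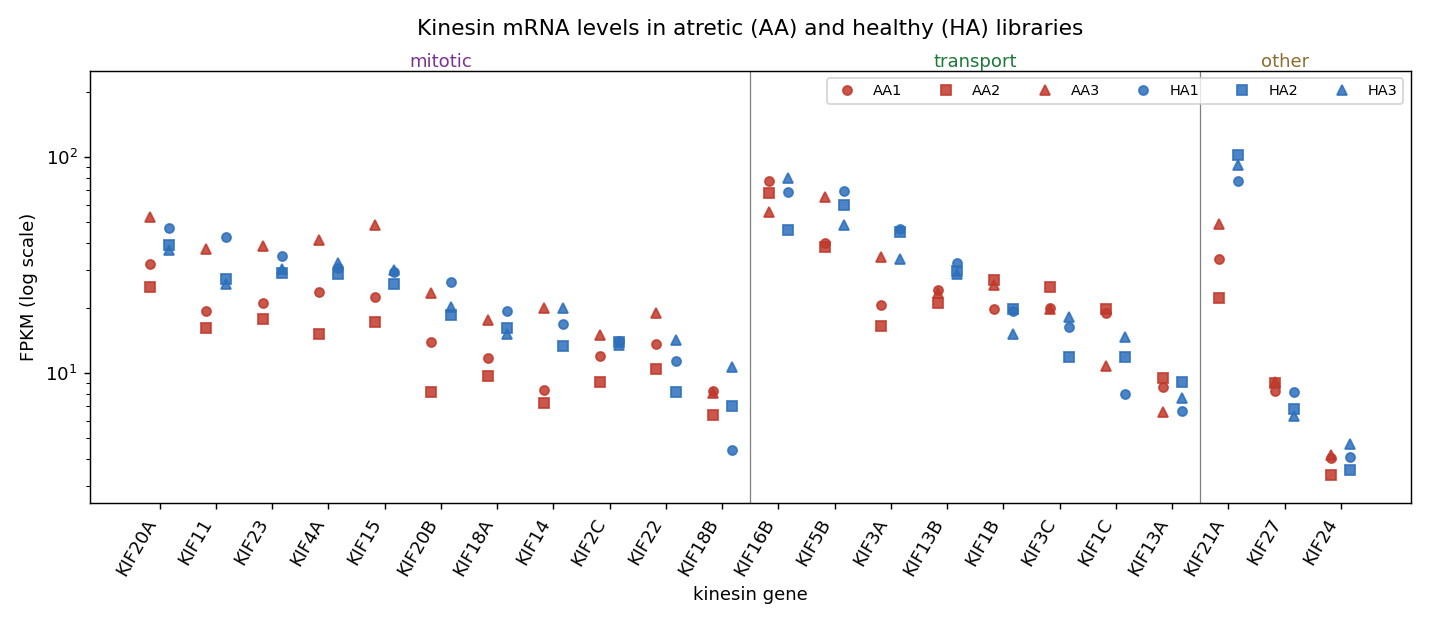
FPKM (log axis) of the 22 kinesin mRNAs tested, grouped as mitotic, transport and other, with AA libraries in red left of HA libraries in blue and 1 point per library. KIF21A is the gene with the widest gap between the groups, with AA libraries at 22.3 to 48.7 FPKM and HA libraries at 77.1 to 102.3 FPKM.

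No kinesin mRNA was called different between AA and HA after adjustment over all genes (threshold 0.05, Benjamini-Hochberg). The background of this fit was empty as well: limma called 0% of the 11001 genes tested as higher in AA and 0% as lower. At an unadjusted p of at most 0.05 the fit marked 3 of the 22 kinesins, all with lower values in AA, which is 13.6% of them, beside 15.6% of all genes in either direction. By direction, 6.14% of all genes were marked lower and 9.48% higher. The AA and HA values did not overlap for 4 kinesins, 18.2% of those tested, against 21% of all genes tested. Over both directions neither share was above that of all genes, and the share marked lower was, on 3 genes.

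KIF21A had the lowest adjusted p of the family. It encodes a kinesin that slows microtubule growth at the cell cortex and lies at chr5:73380995-73586157. Its mRNA was at 33.6, 22.3 and 48.7 FPKM in AA1 to AA3 and at 77.1, 102.3 and 91.6 FPKM in HA1 to HA3. All 3 AA libraries lay below all 3 HA libraries, with the gap between AA3 and HA1. The log2 difference was -1.41 ± 0.27 (SE) with a limma adjusted p of 0.0707. The limma adjusted p ranged from 0.0434 to 0.270 over the alternatives with replicates in both groups. Without AA3 the difference was -1.67 and the limma adjusted p 0.0434, a call. Without AA2, AA3 and HA1, a setting added after the data were seen, the difference was -1.50. In that setting AA1 stands alone in its group, so the spread within AA is not measured. Within the same-numbered pairs, which share a date in the labels, the AA minus HA difference was -1.17, -2.15 and -0.90.

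KIF3A and KIF13B were the other kinesins with an unadjusted p of at most 0.05. KIF3A, the motor subunit of the kinesin that builds cilia, had 20.6, 16.4 and 34.6 FPKM in AA1 to AA3 and 46.2, 44.7 and 33.9 FPKM in HA1 to HA3. AA1 and AA2 lay below the HA range, but AA3 exceeded HA3. The log2 difference was -0.83 ± 0.28 (SE, limma adjusted p = 0.211), and it came to 0.03 in the third pair. KIF13B, a transporter of membrane cargo, had 24.3, 21.0 and 23.3 FPKM in AA1 to AA3 and 32.2, 29.5 and 28.6 FPKM in HA1 to HA3. Its groups did not overlap, and the difference was small at -0.38 ± 0.16 (SE, limma adjusted p = 0.316).

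The remaining genes without overlap had higher values in AA. KIF3C, a partner of KIF3A in neurons, had 19.9, 24.9 and 19.7 FPKM in AA1 to AA3 and 16.3, 11.9 and 18.2 FPKM in HA1 to HA3 (log2 difference 0.47 ± 0.22 SE, limma adjusted p = 0.354). Its locus in the gene table overlaps that of 1 other gene. KIF27, a relative of KIF7 that in mice acts in motile cilia, had 8.27, 8.96 and 9.05 FPKM in AA1 to AA3 and 8.18, 6.77 and 6.34 FPKM in HA1 to HA3 (log2 difference 0.28 ± 0.22 SE, limma adjusted p = 0.588). AA1 and HA1 of KIF27 were nearly equal.

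Among the members too low to be tested, KIF21B and KIF26B also had no overlap. The share without overlap among all genes below the filter was not counted. Except for KIF21B in AA2, both genes stayed below 1 FPKM in every library, near the floor. KIF21B, the close relative of KIF21A found in neurons and leukocytes, was at 0.279, 2.77 and 0.0669 FPKM in AA1 to AA3 and at or below 0.0126 FPKM in HA. Its value was highest in AA2, the library with the highest summed leukocyte markers, and the part of these cells in it was not tested. KIF26B, an atypical kinesin, was at 0.333, 0.696 and 0.160 FPKM in AA1 to AA3 and at 0.0485, 0.0307 and 0.0103 FPKM in HA1 to HA3.

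**Figure D2:**
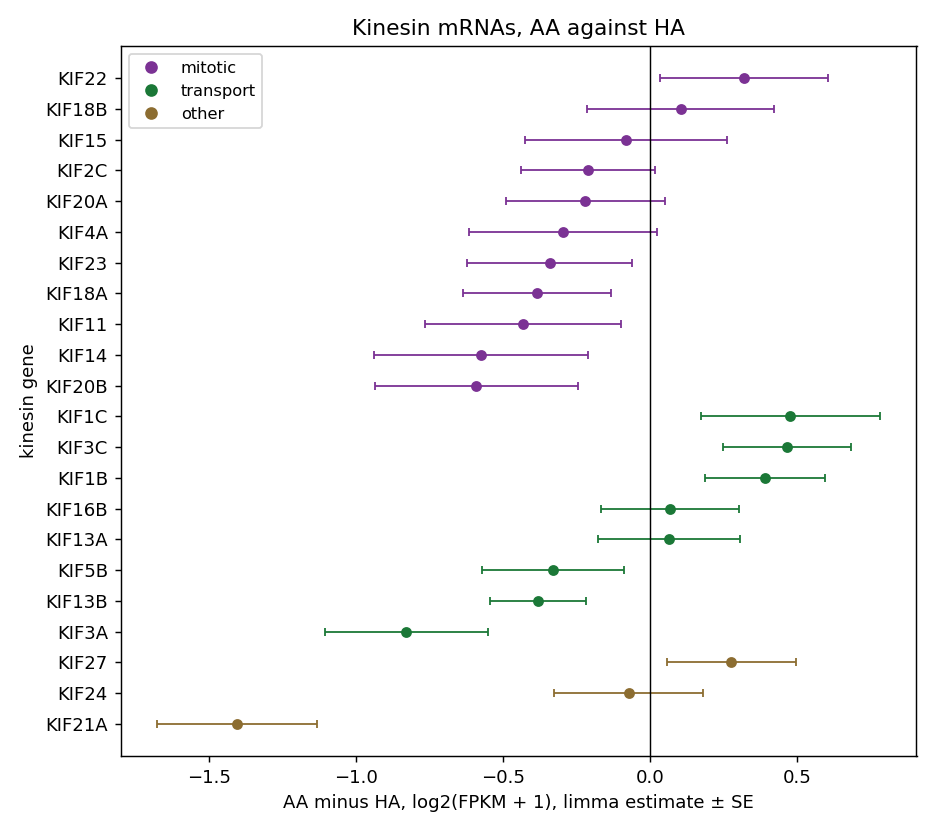
Difference of each kinesin mRNA, AA minus HA on the log2(FPKM + 1) scale (limma estimate, bars are 1 SE), coloured by class. Of the mitotic kinesins 9 of 11 lie below 0, KIF21A lies lowest at -1.41, and no gene was called.

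The mitotic kinesins varied together from library to library. Of the 11 tested, 9 had a negative log2 difference and 2 a positive one, with estimates from -0.59 for KIF20B to 0.32 for KIF22 and none called (lowest limma adjusted p 0.462). Their median was -0.30, beside 0.01 over all genes tested. This median hid a contrast between the AA libraries. All 11 had their lowest AA value in AA2 (37.1% of all genes tested), and 10 of 11 had their highest in AA3 (37.4% of all genes). In AA1 and in AA2, 9 of 11 lay below every HA library, against 28.4% of all genes in AA1 and 35.7% in AA2. In AA3, 7 of 11 lay above every HA library, against 28.2% of all genes. The AA3 level was 2.19 times the AA2 level in the median of the 11 genes, with a range of 1.27 to 2.88, against 1.005 in the median of all genes tested.

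Summed over the class, mitotic kinesins came to 186.4, 142.0 and 322.1 FPKM in AA1 to AA3 and to 276.4, 226.6 and 249.3 FPKM in HA1 to HA3. The HA libraries therefore stood between AA1 and AA3. Within the pairs of a shared date the median difference was -0.54, -0.68 and 0.35, so the third pair had the other sign. Leaving out AA3 gave a median of -0.61 and 8 mitotic kinesins with an unadjusted p of at most 0.05, whereas leaving out AA2 gave a median of -0.04 and none. Without AA3, 12 of the 22 kinesins had an unadjusted p of at most 0.05 (54.5%), against 23.4% of all genes tested in that fit, and KIF21A alone passed the adjusted threshold, which 0.899% of all genes passed.

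KIF11, the plus-end motor that pushes the spindle poles apart, showed this pattern with 19.3, 16.1 and 37.5 FPKM in AA1 to AA3 and 42.7, 27.1 and 25.8 FPKM in HA1 to HA3. KIF15, which supports KIF11 in the spindle, had 22.4, 17.2 and 48.6 FPKM in AA1 to AA3 and 29.2, 25.7 and 30.0 FPKM in HA1 to HA3. KIF23, the motor of the central spindle in cytokinesis, had 21.1, 17.7 and 38.8 FPKM in AA1 to AA3 and 34.8, 29.0 and 30.3 FPKM in HA1 to HA3. For all of these AA3 was far above AA1 and AA2, and the HA libraries lay between them except that HA1 of KIF11 was above AA3. The chromosome-arm motors differed: KIF4A followed the pattern with 23.7, 15.2 and 41.3 FPKM in AA1 to AA3 and 30.7, 28.8 and 32.3 FPKM in HA1 to HA3, whereas KIF22 had 13.6, 10.4 and 18.9 FPKM in AA1 to AA3 and 11.3, 8.14 and 14.2 FPKM in HA1 to HA3. These genes were chosen for description after their values were seen.

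Across the 6 libraries, the mitotic kinesins were correlated with each other with a median Pearson r of 0.86 over 55 pairs, of which 50 were above 0. The median r was -0.23 over the 28 pairs of transport kinesins and -0.24 over the 88 pairs of a mitotic and a transport kinesin. These coefficients describe 6 libraries that share scaling and depth, and carry no test. KIF18B, which trims astral microtubules, was the mitotic kinesin least like the rest of its class, with r = 0.04 to their mean. It had 8.26, 6.36 and 8.10 FPKM in AA1 to AA3 and 4.37, 6.99 and 10.7 FPKM in HA1 to HA3. Of the other classes KIF5B, KIF3A and KIF24 had r = 0.82, 0.79 and 0.70 to the mean of the mitotic kinesins, and KIF13A and KIF1C had r = -0.86 and -0.78.

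**Figure D3:**
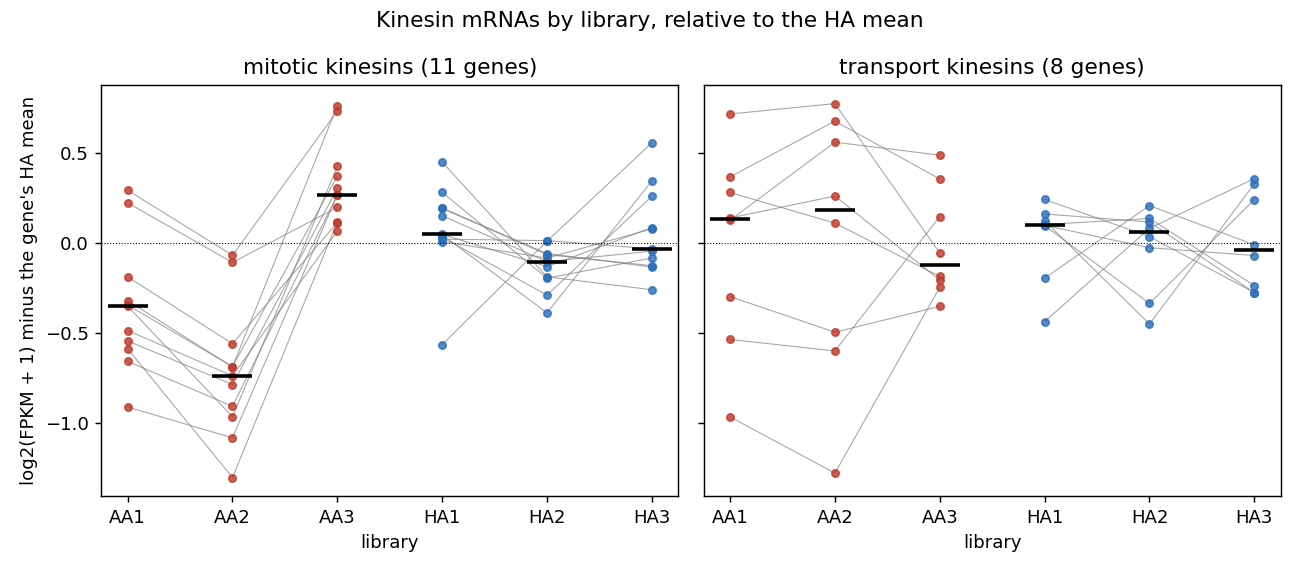
Log2(FPKM + 1) of each mitotic (left, 11 genes) and transport kinesin (right, 8 genes) in each library, relative to the gene's HA mean, with AA in red and HA in blue. Thin lines join the values of 1 gene within a group, black bars are medians; mitotic kinesins are lowest in AA2 and highest in AA3 among the AA libraries, while transport kinesins spread in both directions.

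Transport kinesins did not share a direction. Of the 8 tested, 5 had a positive and 3 a negative log2 difference, and the median was 0.07. It was 0.09, 0.24 and -0.08 within the 3 pairs. The positive ones included KIF1B, a carrier of mitochondria and synaptic vesicle precursors, with 19.7, 27.0 and 25.6 FPKM in AA1 to AA3 and 19.4, 19.9 and 15.1 FPKM in HA1 to HA3, and a limma adjusted p of 0.408. KIF1C, a carrier of integrins and dense vesicles, averaged 16.5 ± 5.04 FPKM in AA and 11.5 ± 3.32 FPKM in HA (SD, n = 3 each, limma adjusted p = 0.503). KIF13A, a carrier of recycling endosomes, was at 6.56 to 9.45 FPKM in AA and 6.62 to 9.08 FPKM in HA. Of the other kinesins tested, KIF24, which depolymerizes microtubules at the centriole, was at 3.36 to 4.16 FPKM in AA and 3.55 to 4.68 FPKM in HA. The 3 other kinesins had a median difference of -0.07, with KIF21A and KIF27 at its ends.

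Genes that work with kinesins were read from lists, and no gene on them was called. Of the kinesins and subunits outside the numbered names, 7 of 9 were found and tested, with a median log2 difference of -0.12 that was -0.42 without AA1 and 0.11 without AA3. KLC1, a light chain that links kinesin to cargo, averaged 87.6 ± 16.1 FPKM in AA and 73.2 ± 6.62 FPKM in HA (SD, n = 3 each). KIFAP3, the subunit that joins KIF3A to cargo, was noticed after its values were seen. It had 11.9, 10.4 and 17.5 FPKM in AA1 to AA3 and 21.5, 22.7 and 19.1 FPKM in HA1 to HA3. Its AA libraries lay below its HA libraries, as 9.1% of all genes did, and the difference was -0.65 (limma adjusted p = 0.228).

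The 22 listed partners of mitotic kinesins, such as TPX2 and CKAP5 of the spindle and the kinase AURKB of the chromosomal passenger complex, were found as 17 entries of 15 genes. Of these entries 15 had a negative and 2 a positive difference, with a median of -0.25, which was -0.028 without AA2 and -0.54 without AA3. An unadjusted p of at most 0.05 was found for 3, all lower in AA, against 6.14% of all genes. They followed the mitotic kinesins across libraries: 15 had their lowest AA value in AA2 and 14 their highest in AA3. HMMR, a spindle-associated hyaluronan receptor, averaged 40.5 ± 19.1 FPKM in AA and 65.4 ± 8.34 FPKM in HA (SD, n = 3 each, limma adjusted p = 0.279). Proliferation markers gave a median of -0.11, with 7 of 9 below 0, and it was -0.24 without AA1 and -0.027 without AA2. TOP2A, the topoisomerase of dividing cells, had 137.1, 95.1 and 257.2 FPKM in AA1 to AA3 and 224.6, 185.3 and 182.7 FPKM in HA1 to HA3, again with AA3 above and AA2 below all HA libraries. The proliferation antigen MKI67, by the higher of its 2 entries, had 32.3, 44.0 and 55.2 FPKM in AA1 to AA3 and 52.3, 32.5 and 47.0 FPKM in HA1 to HA3, which overlapped.

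Cargo adaptors, found for 17 of 22 genes, had a median difference of -0.03 over 17 entries, with 8 above and 9 below 0, and of -0.16 without AA1. At an unadjusted p of at most 0.05, 1 was marked higher and 1 lower. CLSTN1, which links kinesin light chains to vesicles, averaged 93.9 ± 16.03 FPKM in AA and 85.5 ± 14.5 FPKM in HA, and the endosomal GTPase RAB14 87.2 ± 2.25 FPKM in AA and 89.9 ± 13.9 FPKM in HA (SD, n = 3 each). KTN1, the kinesin receptor of the endoplasmic reticulum, averaged 69.2 ± 6.60 FPKM in AA and 87.6 ± 3.92 FPKM in HA, and TRAK1, the adaptor of mitochondria, 39.5 ± 7.24 FPKM in AA and 52.9 ± 5.02 FPKM in HA (SD, n = 3 each, limma adjusted p = 0.324 and 0.319). TRAK1 was the one marked lower. PLEKHM2, the lysosomal adaptor marked higher and named after its values were seen, averaged 36.3 ± 10.7 FPKM in AA and 21.1 ± 5.06 FPKM in HA (SD, n = 3 each, limma adjusted p = 0.250). For dynein and dynactin, the motor that runs the other way, 9 entries had a positive and 5 a negative difference, with none at an unadjusted p of at most 0.05. Their median was 0.04, -0.10 without AA3 and 0.13 without AA1. Tubulins, the tracks themselves, had positive differences for 5 of 5 tested, with a median of 0.28 that was 0.071 without HA1 and 0.55 without HA3. TUBB, the most abundant, had 1081, 1006 and 1022 FPKM in AA1 to AA3 and 719.1, 716.1 and 925.0 FPKM in HA1 to HA3 (limma adjusted p = 0.375). TUBB2B, a minor beta tubulin, was noticed after the fits because it was called without AA3. It had 27.1, 62.5 and 10.8 FPKM in AA1 to AA3 and 5.62, 4.49 and 6.79 FPKM in HA1 to HA3 (limma adjusted p = 0.124 with all libraries, 0.0434 without AA3).

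Marker lists for other cells were read beside the kinesins. The median log2 difference was -0.57 for the 8 granulosa and for the 2 theca markers tested, and 1.74 for 6 leukocyte and macrophage markers. It was 1.09 for 2 endothelial, 0.80 for 4 smooth muscle and fibroblast markers and -0.07 for the 1 oocyte marker. Some leukocyte markers passed the filter only with the AA libraries. Among them CD68 and CD14 were at 0.640 to 1.03 and 0.192 to 1.17 FPKM in HA. The filter can thus favour markers with higher values in AA. Leaving out single libraries moved the granulosa median to -0.87 without HA1 and -0.24 without HA3, the smooth muscle and fibroblast median to 0.34 without AA2 and 1.22 without AA3, and the oocyte value to 0.078 without AA2 and -0.24 without AA3. Of the theca markers CYP17A1 was at 0 to 0.106 FPKM in AA and 0.191 to 1.38 FPKM in HA, and COLEC11 was also near 0. The 2 tested were expressed in every library. INSL3 was at 11.3 to 23.6 FPKM in AA and 23.4 to 46.7 FPKM in HA (limma adjusted p = 0.214). PTCH1 was at 9.91 to 12.8 FPKM in AA and 11.1 to 14.6 FPKM in HA. The endothelial markers summed to 8.50, 29.7 and 15.1 FPKM in AA1 to AA3 and to 3.36 to 6.15 FPKM in HA, and the smooth muscle and fibroblast markers to 34.7, 86.0 and 36.2 FPKM in AA1 to AA3 and to 15.2 to 25.4 FPKM in HA. AA2, where 9 of 11 mitotic kinesins had their lowest value of all 6 libraries, was highest for the leukocyte, endothelial and smooth muscle lists and lowest of the AA libraries for the granulosa list. Their part in the kinesin levels was not tested.

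Kinesin circRNAs were scattered. The 14 host genes were 7 mitotic, 6 transport and 1 other kinesin, all among the 22 tested mRNAs, and 8 of those 22 had no circRNA, among them KIF20A and KIF11. Exonic circRNAs made up 33 of 44 (75.0%, against 54.4% of all circRNAs), and the others were 8 sense overlapping and 3 antisense. The predicted length of the exonic ones had a median of 629 nt and ranged from 172 to 2831 nt. Of the 44, 37 were seen in 1 library only (84.1%, against 77.2% of all circRNAs), 6 in 2 libraries and 1 in more than 2. By group, 11 were seen in AA only (25.0%, against 34.8% of all circRNAs), 27 in HA only (61.4%, against 47.3% of all circRNAs) and 6 in both. By library, 9, 5 and 5 kinesin circRNAs were seen in AA1 to AA3 and 5, 12 and 17 in HA1 to HA3. Circular RNAs of any gene numbered 3036, 1270 and 1620 in AA1 to AA3 and 1416, 2804 and 3465 in HA1 to HA3.

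Many of these circRNAs shared a start or end position, and the share over all host genes was not counted. In 6 of the 8 host genes with several circRNAs, at least 2 shared a start or an end, which gave 10 shared positions and 20 circRNAs that used one. In KIF16B, 3 circRNAs ended at position 28268431 and 2 started at 28241701 of chromosome 17. In KIF21A, 3 ended at 73520522 of chromosome 5, and in KIF1B, 3 started at 64542087 of chromosome 6.

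Summed over all kinesin circRNAs, junction reads did not separate the groups. They came to 57, 112 and 78 in AA1 to AA3 and to 76, 70 and 74 in HA1 to HA3. Divided by the relative mapped depth, they averaged 99.0 ± 41.3 in AA and 86.9 ± 19.9 in HA (SD, n = 3 each, two-sided exact permutation p = 0.7, where the smallest possible p is 0.1). The difference of 12.1 changed sign to -15.2 without the circRNAs of KIF16B and to -8.16 without AA2. By class, circRNAs of mitotic kinesins had 6, 27 and 14 reads in AA1 to AA3 and 54, 15 and 28 in HA1 to HA3. These overlapped, and HA1 alone held 54 of the 97 reads in HA. Transport kinesins had 42, 85 and 56 reads in AA1 to AA3 and 8, 34 and 25 in HA1 to HA3, without overlap. KIF16B gave 36, 37 and 16 of these in AA1 to AA3 and 0, 13 and 7 in HA1 to HA3. Without KIF16B, AA1 fell below every HA library, so the groups of the class overlap.

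**Figure D4:**
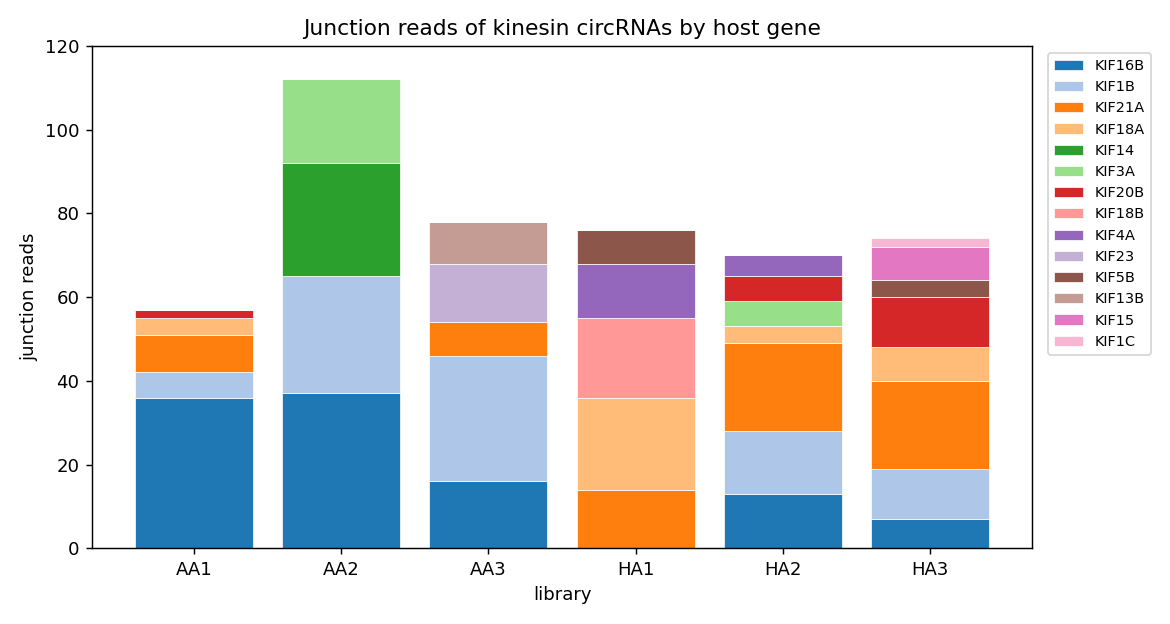
Junction reads of the 44 kinesin circRNAs in each library (AA left, HA right), stacked by host gene in order of total reads. KIF16B takes 36, 37 and 16 reads in AA1 to AA3 and 0, 13 and 7 in HA1 to HA3, and most other host genes appear in 1 to 3 libraries.

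KIF16B had the most junction reads of the family. Its 6 circRNAs summed to 36, 37 and 16 reads in AA1 to AA3 and to 0, 13 and 7 reads in HA1 to HA3. All AA libraries were above all HA libraries. The exact permutation p, here and for the next host genes, was taken on reads per relative mapped depth. For KIF16B it was 0.1, the smallest possible, or 0.167 after Benjamini-Hochberg adjustment over the 5 host genes with the most reads. Since p cannot go below 0.1, no host gene could pass the adjusted threshold, and the test cannot decide on a difference. The 5 host genes were picked by their reads in these same libraries. The share without overlap over all host genes was not counted. Of the 89 AA reads of KIF16B, 52 were of circ_KIF16B, which the study had chosen from these libraries. The separation of KIF16B is therefore no independent evidence. KIF1B, with 8 circRNAs, had 6, 28 and 30 reads in AA1 to AA3 and 0, 15 and 12 in HA1 to HA3 (exact permutation p = 0.3). KIF21A, with 9 circRNAs, had 9, 0 and 8 reads in AA1 to AA3 and 14, 21 and 21 in HA1 to HA3 (exact permutation p = 0.1, adjusted 0.167). By these sums its circRNAs and its mRNA both had lower values in every AA library. All 14 reads of HA1, however, came from 1 antisense circRNA at chr5:73582768-73583625, on the strand opposite to the gene. Without it the circRNA groups overlap, so the p rests on it. Per 100 FPKM of its mRNA, KIF21A gave 26.8, 0 and 21.1 depth-scaled reads in AA1 to AA3 and 26.1, 20.9 and 24.9 in HA1 to HA3, which overlapped. The HA1 value again rests on that circRNA.

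KIF18A, the motor that limits chromosome oscillation, had 4, 0 and 0 reads from 5 circRNAs in AA1 to AA3 and 22, 4 and 8 in HA1 to HA3. The reads of HA1 came from 1 circRNA. AA1 and HA2 tied at 4 reads, and only depth scaling, to 4 in AA1 and 4.06 in HA2, separated the groups of KIF18A, so the exact permutation p of 0.1 (adjusted 0.167) rests on that gap. KIF14, a motor of the midbody, had 1 circRNA with 27 reads in AA2 and 0 reads in the other 5 libraries, where 0 allows up to 3 reads. The others, from KIF3A with 26 reads down to KIF1C with 2, were each seen in 1 to 3 libraries.

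Of the 44 kinesin circRNAs, only circ_KIF16B had at least 2 reads in at least 3 libraries and could be tested. It had 22, 14 and 16 junction reads in AA1 to AA3 and 0, 0 and 2 in HA1 to HA3. The AA libraries alone carried it past this filter, so neither its separation nor its tests are independent of the filter. Every AA library was above every HA library, as was so for 2.86% of the 1014 circRNAs tested. Per relative mapped depth the reads were 22, 17.4 and 20.6 in AA and 0, 0 and 2.17 in HA. The 52 reads in AA and 2 in HA gave a depth-scaled ratio of 26.2, with an exact 95% interval of 6.91 to 222.3 that covers counting error only. The circRNA had been chosen by the study from these libraries, so its direction here is no independent evidence. Apart from the sequencing, the study reported higher circ_KIF16B in AA by qRT-PCR, resistance to RNase R and its junction by Sanger sequencing. Those measurements were not examined here.

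The test across all circRNAs made no call for circ_KIF16B. The quasi-likelihood test of edgeR, whose common dispersion was 2.03, gave a log2 fold change of 4.51 ± 2.52 (SE, edgeR adjusted p = 0.998). It called 0.0986% of the circRNAs tested, and 5.72% had an unadjusted p of at most 0.05 with a fold change of at least 2. DESeq2 gave 4.53 ± 1.93 (unadjusted p = 0.0186, adjusted p = 0.9996). The ordinary linear model on the deposited log2 values, which uses the spread of this circRNA alone, gave 3.76 ± 0.33 (SE, unadjusted p = 0.000345, adjusted p = 0.0613) and ranked it number 5 of 1014. For HA1 and HA2 these values stand for 0 reads and carry only the depth constant. The SE, p and rank of that model therefore rest on what 0 was set to. By that model 6.11% of circRNAs had an unadjusted p of at most 0.05 with a fold change of at least 2. The adjusted p ranged from 0.0613 to 0.9998 over the alternatives.

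The linear KIF16B mRNA gave no such separation. The difference between the deposited log2 value of circ_KIF16B, where 0 reads were entered as 1, and log2(FPKM + 1) of KIF16B was -1.83, -1.99 and -1.46 in AA1 to AA3 and -5.61, -5.54 and -5.22 in HA1 to HA3. The groups differed by 3.69 with no overlap (two-sided exact permutation p = 0.1, the smallest possible). The value of HA1 and HA2 rests on 0 reads, so the size of this difference depends on what 0 was set to. The deposited circRNA value alone differed by 3.76 between the groups. Since the study had chosen circ_KIF16B from these libraries, the separation from its mRNA is no independent evidence either.

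The 5 other circRNAs of KIF16B did not share the pattern of circ_KIF16B. The circRNA at chr17:28150461-28196395 (297 nt) had 23 reads in AA2 and 3 in HA3, that at chr17:28264912-28268431 (310 nt) 8 in AA1 and 4 in HA2, and that at chr17:28173576-28268431 (2412 nt) 6 in AA1. The short ring at chr17:28241701-28243476 (172 nt), which shares the start of circ_KIF16B, had 9 reads, all in HA2. An antisense circRNA at chr17:28329566-28330376 (811 nt) had 2 reads in HA3. Together these 5 had 14, 23 and 0 reads in AA1 to AA3 and 0, 13 and 5 in HA1 to HA3, which overlapped.

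**Figure D5:**
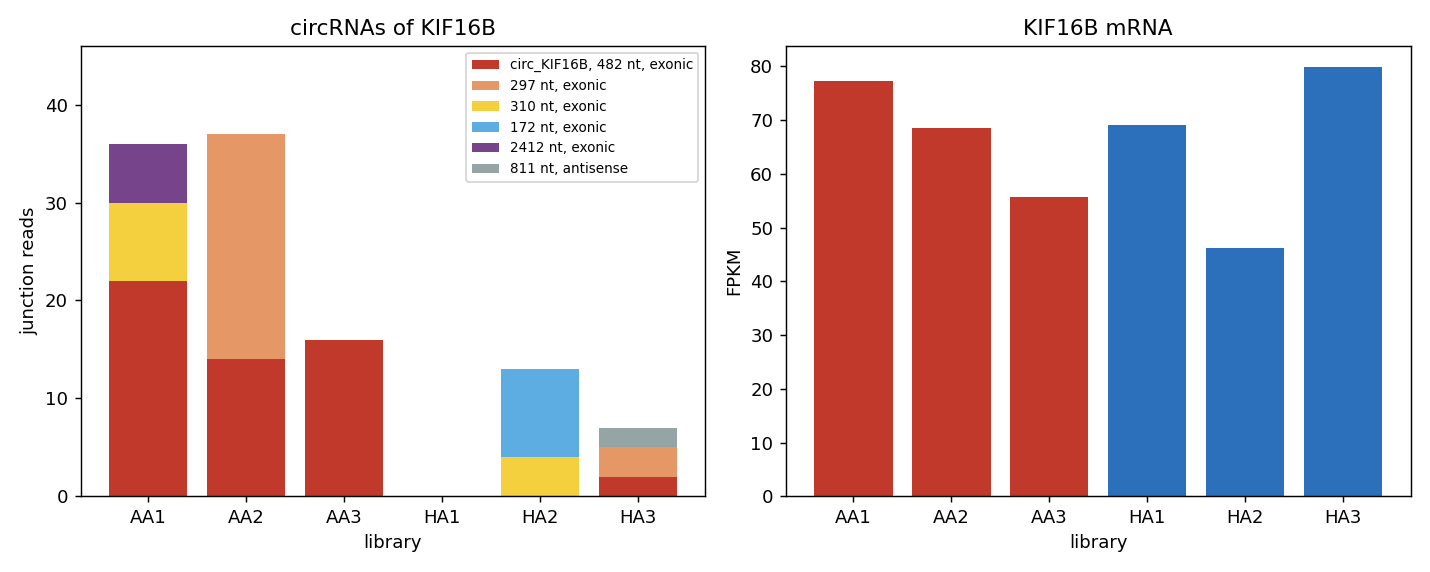
Left, junction reads of the 6 KIF16B circRNAs in each library, stacked and labelled by predicted length; right, FPKM of KIF16B mRNA, both with AA left of HA. The red segment, circ_KIF16B, has 14 to 22 reads in AA and 0 to 2 in HA, while the mRNA is at 55.6 to 77.2 FPKM in AA and 46.2 to 79.8 FPKM in HA.

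Of the KIF2A gene, whose mRNA is not among the members, 2 circRNAs on an unplaced scaffold had 8 reads each, all in HA2.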

How the data were processed

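RNA depleted of rRNA from 6 libraries (3 AA, 3 HA, each a pool of 10 follicles) had been sequenced with a stranded kit on an Illumina HiSeq. The authors trimmed reads with cutadapt, aligned them to Sscrofa10.2 with bowtie2 and found junctions with find_circ. The deposited circRNA table holds the authors' raw junction read counts (0 or at least 2) and their log2 values, which are log2 of the count, with 0 entered as 1, corrected by 1 constant per library for mapped reads. The deposited gene table holds the authors' FPKM from TopHat and Cufflinks (versions: not given in the sources used here) and values the authors call counts. These are a signal scaled per library by the authors and served only to estimate depth. The lncRNA table was not used, and no value column was left unmapped (0).

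limma 3.58.1, with its trend option, compared log2(FPKM + 1) of the 11001 genes that reached 1 FPKM in 3 or more libraries. Fold changes on this scale understate the change of low genes. For junction counts, the quasi-likelihood test of edgeR 4.0.16 covered the 1014 of 9362 circRNAs that had 2 reads or more in 3 or more libraries, with library sizes from the mapped-read constants. A call needed an adjusted p of at most 0.05 and, for circRNAs, a fold change of at least 2. Single values had exact permutation tests, which with 3 against 3 libraries cannot go below p = 0.1. The fits were tested on simulated data. Same-numbered libraries share a date in the labels, which was taken as a pairing. The deviations of same-numbered libraries from their group means correlated with r = -0.29, 0.00 and -0.40 over genes and -0.01, 0.00 and -0.06 over circRNAs. Over genes the highest values were across numbers, 0.40 for AA1 with HA3 and 0.30 for AA3 with HA1. The libraries of a shared date were thus not the most alike. The p-values measure the spread between pools.

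Alternatives were a replicate block, other pseudocounts, filters and scalings, DESeq2 1.42.0, a linear model and leaving out each library. Members, classes and lists were chosen with earlier results of these data known. Libraries are described for KIF16B, the 5 kinesins of highest mean level, those without overlap and the 5 host genes with the most junction reads, and lists by at most 4 genes of highest mean level. Other genes described were chosen after their values were seen. Gene names came from the table or, for unnamed rows, from a reference list.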

Additional observations from a re-analysis of the deposited data

How the results depend on the processing

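No kinesin mRNA was called with all 6 libraries, and this count stayed at 0 with the replicate block, log2(FPKM + 0.1), no filter, 1 FPKM in all libraries, median-ratio scaling, quantile normalization, a fold change minimum and limma fitted without its trend. It was 3 at the unadjusted p and 0 to 1 when single libraries were left out. The associated lists gave 0 to 1 gene when single libraries were left out. Leaving out AA2, AA3 and HA1 together, the libraries with fewer circRNAs, was a setting chosen after seeing the data. In that setting AA1 stands alone in its group and is assumed to vary like the HA libraries, so only sizes are given. The log2 difference was then -1.50 for KIF21A and 2.10 for TUBB2B. The replicate block changed no call (0 kinesin mRNAs, 0 list genes and 0 kinesin circRNAs). Median differences were 0.35 for mitotic kinesins within pair 3 of the replicate block, 0.24 and -0.083 for transport kinesins within pairs 2 and 3, and -0.25 for the other kinesins after quantile normalization. Leaving out single libraries gave medians of -0.61 to -0.04 for mitotic, -0.0060 to 0.20 for transport and -0.15 to 0.01 for other kinesins. The linear model at the unadjusted p gave 1 kinesin circRNA, and the remaining settings gave 0. The summed junction reads differed by -15.2 without the circRNAs of KIF16B and by -18.7 without AA2, AA3 and HA1, and by -8.16 to 33.1 when single libraries were left out. The difference of circ_KIF16B and its mRNA was 3.54 to 3.81 when single libraries were left out. KIF16B mRNA changed sign to -0.04 without AA1 and -0.16 without HA2, within a range of -0.16 to 0.23 over single libraries left out, and KIF20A to 0.012 without AA2, within -0.52 to 0.012. The causes were not tested. Most kinesin circRNAs had too few reads to be tested, and a 0 does not show absence.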
